A study of Rattus norvegicus with 36 samples.

Results

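The comparison described here set cultured rat granulosa cells given 10 µM HPTE together with cAMP against cells given 5 µM HPTE together with cAMP. Its members are the 6 arrays whose titles carry these labels, 3 for each dose, out of 36 arrays in the whole series, and arrays of the same title number were matched. HPTE is a metabolite of the pesticide methoxychlor that carries a pair of hydroxyl groups. Granulosa cells, which surround the oocyte in the ovarian follicle, had been obtained by puncturing the ovaries of immature female Sprague-Dawley rats (21 to 27 days old) with a needle. After 24 h in 5% serum the cells of every group were treated for 48 h in serum-free medium that held androstenedione, which aromatase turns into estrogen. Each of 4 HPTE doses (0, 1, 5 and 10 µM) was combined with cAMP at 1 mM, with FSH at 3 ng/ml or with no stimulus (basal), which gave 12 groups of 3 arrays. The groups used here are 10 and 5 µM HPTE with cAMP, the same doses with FSH and without stimulus, and, for the dose series, 1 and 0 µM HPTE with cAMP. The sources used here do not give the form of the added cAMP. Nothing in the labels tells whether the 3 samples of a group were separate animals or wells of 1 pool, and p-values therefore measure only the spread between these samples, which may be technical.

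In granulosa cells, FSH acts through its receptor to raise cAMP, and cAMP through protein kinase A switches on aromatase, the luteinizing hormone receptor and other differentiation genes. Adding cAMP itself bypasses the receptor. HPTE is known to bind both estrogen receptors, and in rat granulosa cells it is known to lower steroid production. Cells short of amino acids or with a stressed endoplasmic reticulum make more of the transcription factor ATF4, which raises genes for amino acid synthesis and transport. Oxidants and electrophiles release the factor Nrf2, which raises detoxifying enzymes.

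Levels below are log2 of the deposited intensity, and a difference is 10 minus 5 µM on that scale, given with its standard error (SE) from limma with n = 3 arrays against 3. A gene passed when its adjusted p (limma, two-sided, Benjamini-Hochberg over 31042 probe sets, title number as a block) was under 0.05. The 3 arrays of each dose correlated with each other at 0.968 to 0.989. RNA quality followed the title number rather than the dose: the Gapdh 3′ to 5′ log2 ratio was 2.052, 1.609 and 0.927 in arrays 1 to 3 of 10 µM, and 1.999, 2.006 and 0.832 in arrays 1 to 3 of 5 µM. The 13 measured markers of granulosa cells had summed intensities of 40400, 33300 and 37600 at 10 µM, and 41400, 39700 and 46800 at 5 µM, lower at 10 µM in all 3 pairs, and 12 of them lay above the array median. Of 17 macrophage and leukocyte markers, 0 passed and 10 (Ptprc, Csf1r and Itgam among them) lay below the array median. Their sums were 2060, 1410 and 1080 at 10 µM, and 1410, 1240 and 939 at 5 µM, higher at 10 µM in all 3 pairs. The sums of 11 theca and stroma markers were 2990, 3110 and 3230 at 10 µM, and 3800, 3630 and 3670 at 5 µM, lower at 10 µM in all 3 pairs. Sums of 11 endothelial markers were 857 to 887 at 10 µM and 779 to 1030 at 5 µM. Sums of 9 surface epithelium markers were 742, 560 and 702 at 10 µM, and 627, 510 and 507 at 5 µM, higher at 10 µM in all 3 pairs. Of these 9 only Upk1b passed, with a rise of 1.87. Differences of 4 of the 9 were below 0, and the median was 0.05. Sums of 6 oocyte markers were 588 to 955 at 10 µM and 789 to 1180 at 5 µM. The part of these markers and of RNA quality in the results was not tested. In such bulk samples fewer cells of a type and less RNA per cell cannot be told apart. The dose of 0 µM entered no difference reported here except through the shared spread, because 2 arrays of that dose stood apart. The aromatase (Cyp19a1) level was 11.01 in array 2 of 0 µM with cAMP, with 7.62 and 6.46 in arrays 1 and 3. In array 2 of 0 µM with FSH it was 7.48, with 11.49 and 11.46 in arrays 1 and 3. The luteinizing hormone receptor gene Lhcgr split in the same way, at 10.04 in array 2 with 5.66 and 5.80 in arrays 1 and 3 for cAMP, and at 5.94 in array 2 with 10.27 and 11.50 in arrays 1 and 3 for FSH. For both genes each array 2 lay nearer to arrays 1 and 3 of the other stimulus.

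The step to 10 µM raised genes of the amino acid response and lowered genes of mitosis and DNA replication. It changed 863 probe sets (2.78% of those tested), of which 452 (1.46%) rose and 411 (1.32%) fell. Of these, 92 rose and 121 fell by at least 2-fold, and the differences ran between -2.36 and 2.59 with a median size of 0.74. The median difference of all probe sets was 0.027. In 860 of the 863 the difference had the same direction in all 3 matched pairs. The fit that called them used the same matching as its block. This count therefore follows largely from the selection and is no separate support. The arrays of the doses did not overlap in 677 of the 863, while 14.6% of all tested probe sets did not overlap. The count of 677 also follows largely from the selection and is no separate support. Without the block 218 passed, 107 higher and 111 lower, and all 218 were among the 863. Leaving out array 3 of 5 µM left 336, leaving out array 3 of 10 µM left 403, and leaving out array 2 of either dose left 565. Of the 28 genes named by rank (the 14 largest rises and the 14 largest falls among genes with non-overlapping arrays), 26 passed in each of 6 fits that left out 1 array, and 22 passed without the block. This naming rule required the lack of overlap, which is therefore no separate support for any of the 28.

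**Figure D1:**
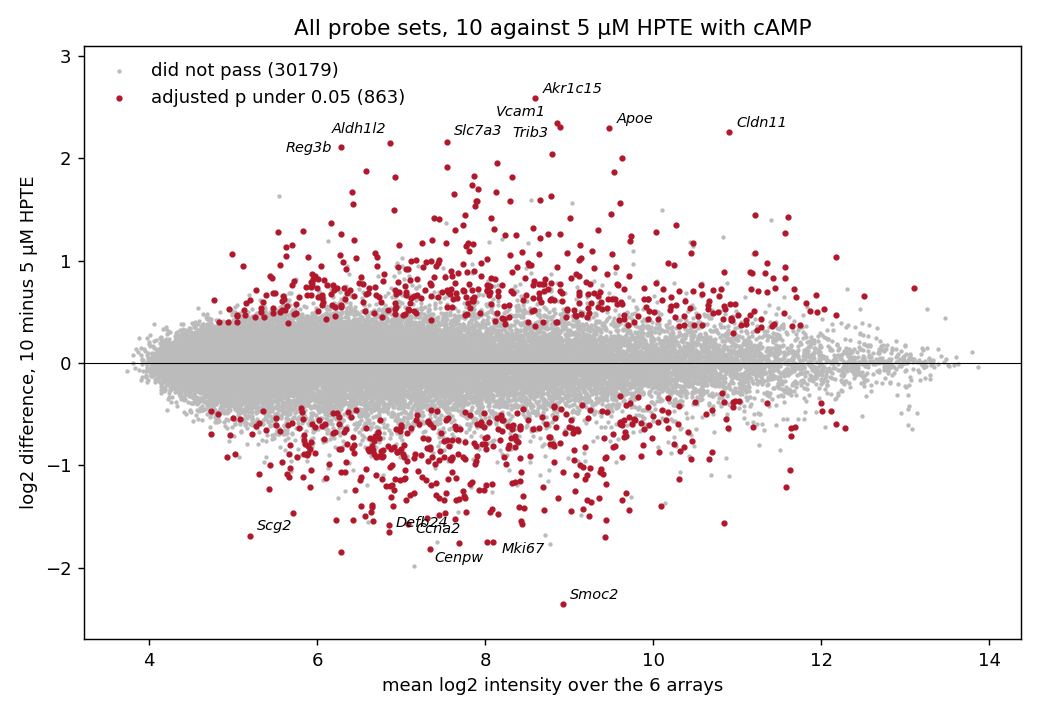
Difference between 10 and 5 µM HPTE with cAMP (log2, vertical) against the mean log2 intensity over the 6 arrays (horizontal) for each of 31042 probe sets, with the 863 that passed in red. The largest rise, Akr1c15 at 2.59, and the largest fall, Smoc2 at -2.36, stand at the top and bottom.

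Genes were also read by lists, 1 probe set per gene, against a background of 3.88% of 14217 genes that passed (2.16% higher and 1.72% lower) and a median difference of 0.05. The lists and their members were chosen with earlier results of these data known. Their shares are therefore descriptions and no test against this background. Some genes belong to more than 1 list and are counted in each, such as Slc7a11 in the ATF4 and Nrf2 lists. The list of ATF4 and amino acid response genes had the most members that rose. Of its 32 measured members 19 rose and 0 fell, all 32 differences were above 0, and their median was 0.86. Of the 19, 12 passed in each of the 6 fits without 1 array and 11 passed without the block. In the matching comparison with FSH 6 members rose (median 0.42), and in basal cells 6 rose (median 0.51). No member of the list passed the test of a difference between cAMP and FSH cells, or between cAMP and basal cells.

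A pair of stress response genes of this list, Trib3 and Chac1, is shown with the DNA before the transcription start, since the amino acid response element, the site that ATF4 binds with a C/EBP partner, is known to lie in such regions. The sequences come from RefSeq (GRCr8), run 5′ to 3′ on the gene's strand over 250 bases before the start, and lie at chr3:161275534-161275783 (minus strand) for Trib3 and chr3:126795881-126796130 (plus strand) for Chac1. Capitals mark a match to TGATGNAA, the core of that element, here on the opposite strand, beginning 21 bases before the start in Trib3 and 167 in Chac1.
Trib3: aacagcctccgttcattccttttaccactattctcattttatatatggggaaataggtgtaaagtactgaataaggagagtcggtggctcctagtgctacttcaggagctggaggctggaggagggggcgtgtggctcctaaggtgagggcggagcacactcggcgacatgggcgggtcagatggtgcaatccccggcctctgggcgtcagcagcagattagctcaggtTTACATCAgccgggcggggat
Chac1: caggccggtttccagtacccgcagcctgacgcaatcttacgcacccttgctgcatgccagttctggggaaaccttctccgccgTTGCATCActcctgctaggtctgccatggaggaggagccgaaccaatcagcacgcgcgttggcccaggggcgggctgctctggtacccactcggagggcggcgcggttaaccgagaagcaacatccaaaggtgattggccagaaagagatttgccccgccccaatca
Such a match, on either strand, was present in 6 of 26 promoters of this list (23.1%) and in 3.4% of all 33469 promoters. Shares of a list, here and below, count only genes with exactly 1 promoter in the table. The share of all promoters had no such condition. A match is a description of the letters and not a measured site.

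Trib3, a pseudokinase that restrains Akt and ATF4, had levels of 10.07, 9.86 and 10.19 at 10 µM, and 7.64, 7.91 and 7.64 at 5 µM. It rose by 2.31 ± 0.33 (adjusted p = 6.06e-05), which is 4.96-fold, and by the naming rule the doses did not overlap. Its other probe sets rose by 1.91 and 1.29. Chac1, an enzyme that degrades glutathione, had 8.87, 8.40 and 8.09 at 10 µM, and 7.19, 6.44 and 6.77 at 5 µM. It rose by 1.65 ± 0.23 (adjusted p = 3.61e-05).

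Some carriers and enzymes that supply amino acids and one-carbon units rose as well, while others of the list did not pass, with differences of 0.93 for Slc7a5 (adjusted p = 0.0689), 0.71 for Mthfd2 (0.239), 0.70 for Psat1 (0.122), 0.58 for Psph (0.137), 0.37 for Cth (0.143) and 0.07 for Slc38a2 (0.843). Slc7a3, a carrier of cationic amino acids, had levels of 8.61, 8.57 and 8.70 at 10 µM, and 6.58, 6.62 and 6.20 at 5 µM, a rise of 2.16 ± 0.32 (adjusted p = 1e-04). Aldh1l2, a mitochondrial enzyme of folate metabolism, had 8.10, 7.98 and 7.74 at 10 µM, and 6.03, 5.87 and 5.49 at 5 µM, a rise of 2.15 ± 0.18 (adjusted p = 1.76e-08). For both, as the naming rule required, every array of 10 µM lay above every array of 5 µM. Asns, which makes asparagine, rose by 1.63 ± 0.28 (adjusted p = 0.000581). Slc6a9, a glycine carrier, rose by 1.58 ± 0.18 (adjusted p = 2.69e-06), and Slc7a1, an arginine carrier, by 0.83 ± 0.16 (adjusted p = 0.00306). Slc7a3, Aldh1l2, Asns, Slc6a9 and Slc7a1 kept their call in each fit without 1 array and without the block.

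Among the regulators of this response, Atf5, a factor related to ATF4, had levels of 10.06, 10.40 and 10.95 at 10 µM, and 8.41, 8.51 and 8.87 at 5 µM. It rose by 1.87 ± 0.24 (adjusted p = 1.59e-05). Ddit3, which encodes the pro-apoptotic factor CHOP, had 8.51, 8.38 and 9.39 at 10 µM, and 6.46, 7.02 and 7.70 at 5 µM. It rose by 1.70 ± 0.28 (adjusted p = 0.000285), and without the block its adjusted p was 0.137. Atf4 itself had 11.50, 11.56 and 12.47 at 10 µM, and 10.42, 10.53 and 11.64 at 5 µM. Its arrays overlapped, because array 3 was the highest at both doses, and within every pair the 10 µM array was higher. It rose by 0.98 ± 0.17 (adjusted p = 0.000719, and 0.642 without the block). Sesn2, a restraint on mTORC1, rose by 0.70 ± 0.11 (adjusted p = 0.000236).

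The enzymes that load amino acids on tRNA moved less. Of 15 measured aminoacyl-tRNA synthetases 7 rose and 0 fell, with a median of 0.60. The 7 were Wars1, Iars1, Nars1, Yars1, Cars1, Mars1 and Sars1, with rises of 0.60 to 0.82. Without the block 0 of them passed, and leaving out array 3 of either dose left 1. Leaving out array 1 left 3 for 10 µM and 2 for 5 µM. Mars1, which charges methionine tRNA, had levels of 10.33, 10.45 and 11.28 at 10 µM, and 9.80, 9.97 and 10.46 at 5 µM, so that the doses overlapped although every pair rose. Of 23 chaperones and other genes of the unfolded protein response 3 rose and 0 fell (median 0.37). Herpud1, a part of the degradation machinery of the endoplasmic reticulum, rose by 1.16 ± 0.19 (adjusted p = 0.000287) and passed in each fit without 1 array. The other two were Hyou1 and Atf6, a chaperone and a stress sensor, at 0.63 and 0.45. Their call was lost without array 1 of 10 µM, array 2 of either dose or array 3 of 5 µM, and Hyou1 also lost it without array 3 of 10 µM or array 1 of 5 µM.

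**Figure D2:**
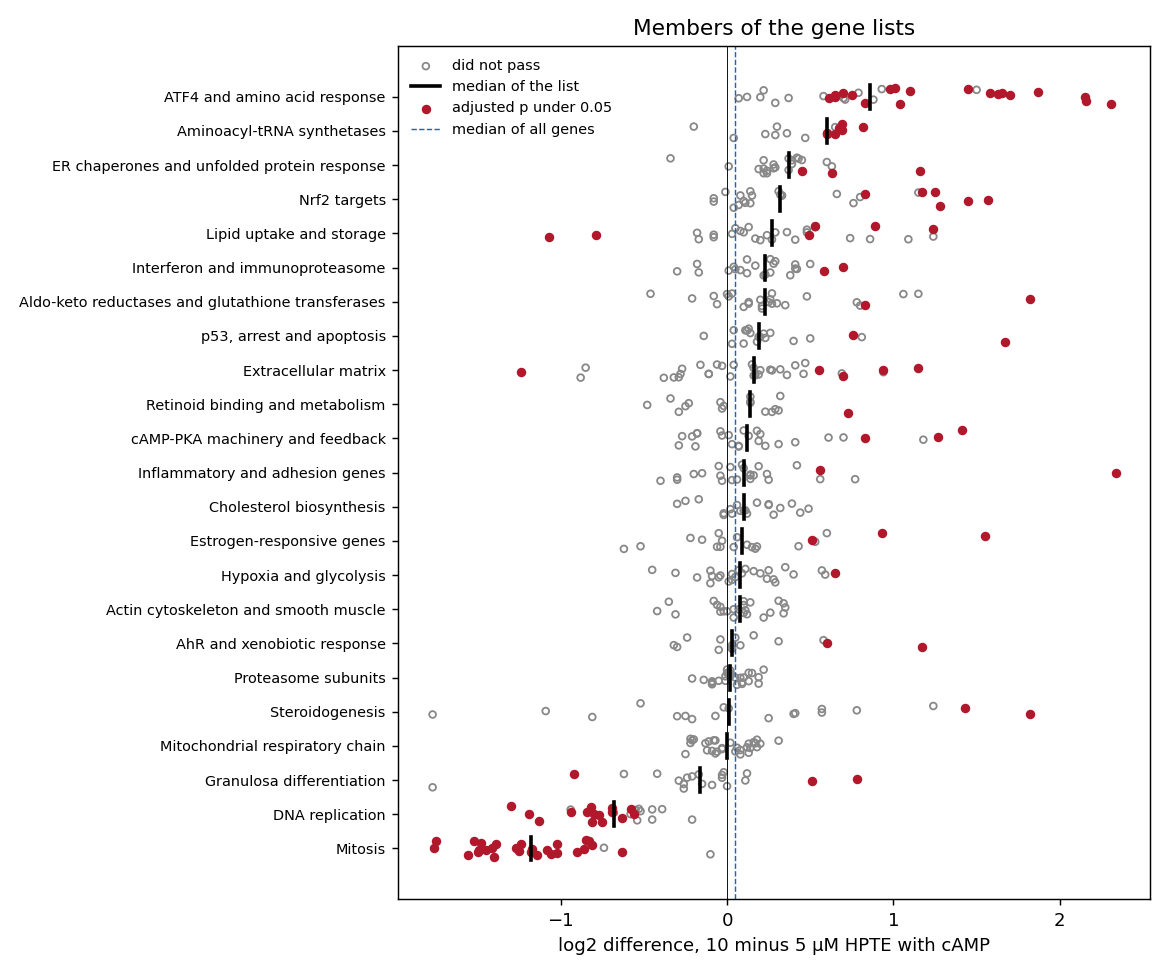
Difference between 10 and 5 µM HPTE with cAMP (log2, horizontal) for each measured member of 23 gene lists (down the page), with filled red points for members that passed, black bars for list medians and a dashed line for the median of all genes (0.05). Mitosis (median -1.18) and DNA replication (median -0.68) lie lowest, and ATF4 and amino acid response (median 0.86) lies highest.

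Nrf2 targets made a smaller group. Of 25 measured members 6 rose and 0 fell (median 0.32), with 1 passing without the block and 3 or 4 in fits without 1 array. Leaving out array 2 or 3 of either dose gave 3. Abcc4, a pump that exports cyclic nucleotides and conjugates, had levels of 10.38, 10.52 and 10.27 at 10 µM, and 9.22, 8.79 and 8.45 at 5 µM. It rose by 1.57 ± 0.23 (adjusted p = 1e-04) and kept its call in those fits and without the block. Nqo1, a quinone reductase, rose by 1.17 ± 0.17 (adjusted p = 8.97e-05, and 0.236 without the block). Gstp1, a glutathione transferase, rose by 0.83 ± 0.16 (adjusted p = 0.00182, and 0.823 without the block). The other three were Slc7a11, Srxn1 and Hmox1, with rises of 1.45, 1.28 and 1.25. The call of Srxn1 was lost without array 2 or 3 of either dose, and the calls of Slc7a11 and Hmox1 without any 1 of the 6 arrays. The largest rise of all belonged to Akr1c15, an aldo-keto reductase outside this list. Its levels were 9.68, 9.64 and 10.35 at 10 µM, and 7.30, 7.22 and 7.38 at 5 µM. It rose by 2.59 ± 0.18 (adjusted p = 3.92e-10), which is 6.03-fold.

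Genes of mitosis fell together. Of 29 measured members 27 fell and 0 rose, all 29 differences were below 0, and their median was -1.18. Of the 27, 22 passed in each fit without 1 array and 17 passed without the block. With FSH 6 members fell (median -0.65), and in basal cells 10 fell (median -0.73). No member passed the test of a difference between cAMP and FSH cells or between cAMP and basal cells.

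The promoters of Ccnb2, the cyclin B2 gene, and Top2a, the topoisomerase that untangles chromosomes, are shown because many mitotic genes are known to carry CCAAT boxes, which the activator NF-Y binds, and a cell cycle homology region, through which they are repressed outside division. They are the 250 bases before the start in RefSeq (GRCr8), at chr8:79981659-79981908 (minus strand) and chr10:84473094-84473343 (minus strand). Capitals mark TTTGAA, the core of the homology region, and CCAAT, on either strand (TTCAAA and ATTGG on the opposite one).
Ccnb2: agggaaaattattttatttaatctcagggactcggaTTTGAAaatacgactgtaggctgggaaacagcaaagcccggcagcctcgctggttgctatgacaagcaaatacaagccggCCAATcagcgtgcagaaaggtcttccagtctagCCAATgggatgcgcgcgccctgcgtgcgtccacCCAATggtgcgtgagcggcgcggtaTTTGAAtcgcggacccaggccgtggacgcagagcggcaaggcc
Top2a: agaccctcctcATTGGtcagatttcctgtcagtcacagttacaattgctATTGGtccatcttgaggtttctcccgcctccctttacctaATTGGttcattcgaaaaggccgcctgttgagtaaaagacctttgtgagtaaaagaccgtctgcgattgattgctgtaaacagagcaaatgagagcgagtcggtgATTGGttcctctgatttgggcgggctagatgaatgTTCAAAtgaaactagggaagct
TTTGAA begins 214 and 43 bases before the start in Ccnb2, and 22 bases before it in Top2a. CCAAT begins at 134, 101 and 68 bases in Ccnb2, and at 239, 201, 161 and 57 in Top2a. Of 23 mitosis genes with exactly 1 promoter in the table, 11 (47.8%) held TTTGAA and 18 (78.3%) held CCAAT, while 16.2% and 34.0% of all 33469 promoters did.

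Ccna2, the cyclin of S phase and entry into mitosis, fell most within this list. Its levels were 7.36, 6.55 and 6.53 at 10 µM, and 8.43, 8.71 and 8.59 at 5 µM. It fell by 1.76 ± 0.23 (adjusted p = 1.61e-05), so that 5 µM was 3.39-fold above 10 µM. Mki67, the proliferation marker Ki-67, had 7.98, 7.04 and 6.63 at 10 µM, and 8.76, 9.37 and 8.76 at 5 µM, a fall by 1.75 ± 0.26 (adjusted p = 1e-04, and 0.0673 without the block). Top2a had 10.11, 9.92 and 10.14 at 10 µM, and 11.36, 11.35 and 12.15 at 5 µM. It fell by 1.56 ± 0.19 (adjusted p = 8.24e-06), and a second probe set fell by 1.70. By the naming rule none of these genes overlapped between the doses.

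Ube2c, which marks mitotic cyclins for destruction, had 6.92, 6.53 and 7.20 at 10 µM, and 7.76, 8.07 and 9.39 at 5 µM. It fell by 1.52 ± 0.20 (adjusted p = 2.66e-05, and 0.075 without the block). Bub1, a kinase of the spindle checkpoint, fell by 1.49 ± 0.23 (adjusted p = 0.000125). The motor protein gene Kif20b fell by 1.5 ± 0.20 (adjusted p = 2.43e-05). Cdk1, the kinase that drives mitosis, had 9.01, 8.98 and 8.61 at 10 µM, and 9.74, 10.21 and 9.89 at 5 µM, a fall by 1.08 ± 0.17 (adjusted p = 0.000196). Ccnb2 fell by 1.24 ± 0.23 (adjusted p = 0.0014) and Ccnb1 by 1.25 ± 0.18 (adjusted p = 6.11e-05). Birc5, the survivin gene, fell by 1.17 ± 0.15 (adjusted p = 1.46e-05). Outside the list, Cenpw, a kinetochore protein gene, fell by 1.75 ± 0.21 (adjusted p = 6.87e-06), Shcbp1 by 1.54 ± 0.17 (adjusted p = 2.25e-06) and Depdc1 by 1.52 ± 0.20 (adjusted p = 2.43e-05).

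DNA replication genes fell by less. Of 26 measured members 15 fell and 0 rose, all 26 differences were below 0, and the median was -0.68. Without the block 2 of them passed, without array 3 of 5 µM 5, and without array 2 of either dose or array 3 of 10 µM 8. Mcm5, a subunit of the replicative helicase, had levels of 7.60, 6.76 and 6.91 at 10 µM, and 8.14, 8.54 and 8.51 at 5 µM. It fell by 1.30 ± 0.20 (adjusted p = 0.000145). Uhrf1, which carries DNA methylation through replication, fell by 1.19 ± 0.17 (adjusted p = 3.66e-05). Both passed in each fit without 1 array. Pcna, the sliding clamp, had 10.50, 10.23 and 10.99 at 10 µM, and 10.83, 11.11 and 11.68 at 5 µM, a fall by 0.63 ± 0.12 (adjusted p = 0.0027) with overlapping arrays. Its call was lost without array 3 of 5 µM and without the block (adjusted p = 0.332).

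**Figure D3:**
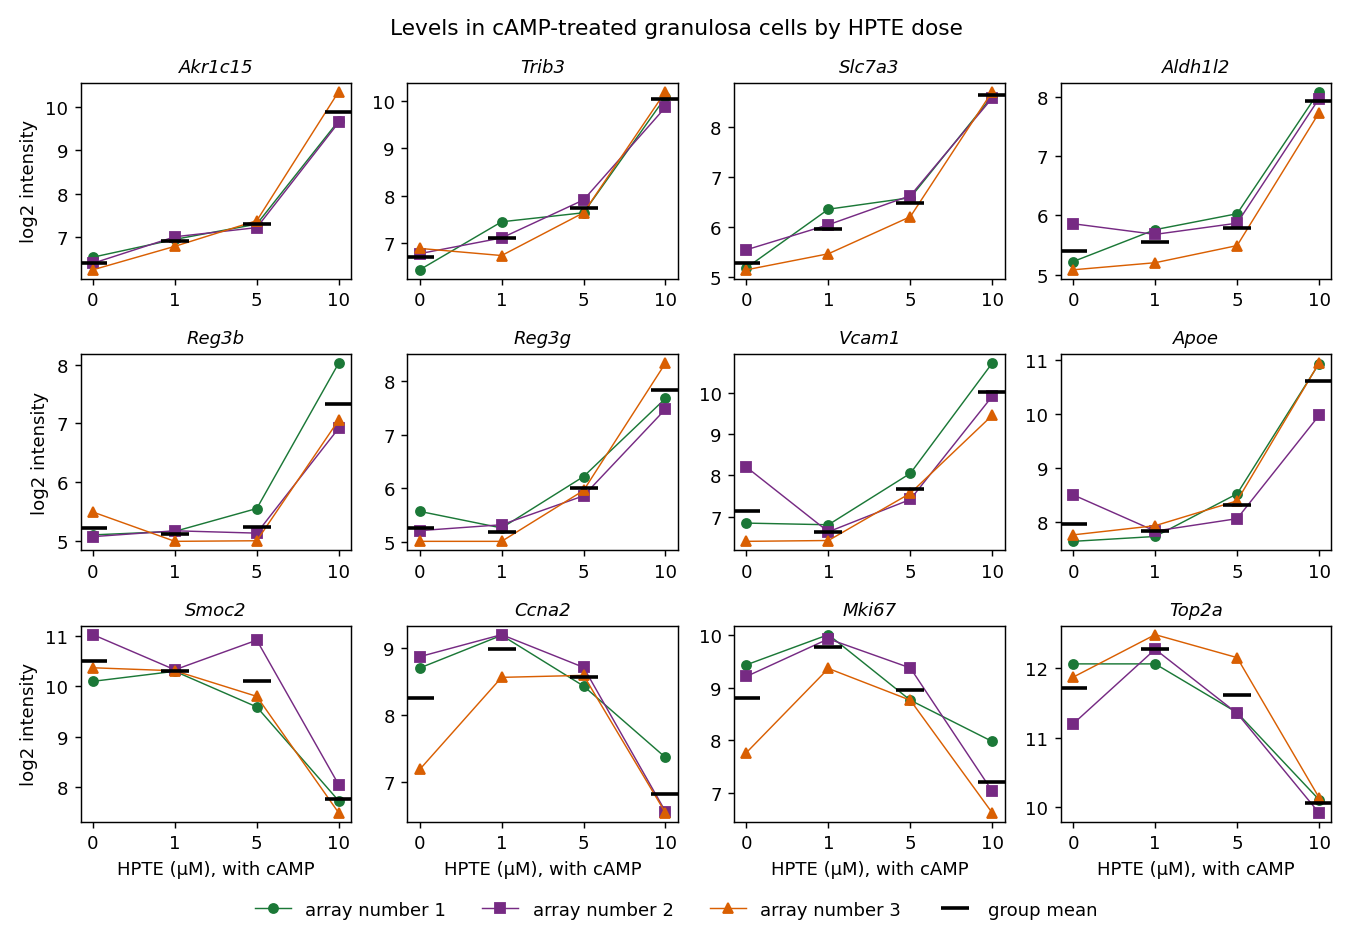
Level (log2 intensity, vertical) of 12 genes in each array with cAMP at 0, 1, 5 and 10 µM HPTE (horizontal, evenly spaced), where lines join arrays of the same title number and bars are group means. For Akr1c15 the means are 6.40, 6.92, 7.30 and 9.89 from 0 to 10 µM, and for Smoc2 they are 10.50, 10.31, 10.10 and 7.75.

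Several genes with large rises belonged to neither group. Vcam1, an adhesion molecule of the cell surface, had levels of 10.71, 9.91 and 9.45 at 10 µM, and 8.05, 7.42 and 7.57 at 5 µM, a rise of 2.34 ± 0.32 (adjusted p = 3.22e-05). Apoe, the apolipoprotein that carries cholesterol, had 10.94, 9.98 and 10.95 at 10 µM, and 8.53, 8.07 and 8.40 at 5 µM, a rise of 2.29 ± 0.30 (adjusted p = 1.95e-05). Cldn11, a tight junction protein, had 12.39, 12.04 and 11.66 at 10 µM, and 10.79, 9.52 and 9.0 at 5 µM, a rise of 2.26 ± 0.25 (adjusted p = 2.53e-06). By the naming rule none of these overlapped between doses. A second, dimmer probe set differed by -0.02 for Apoe and by 0.26 for Cldn11, and neither passed.

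Reg3b and Reg3g encode secreted lectins that are known as antimicrobial proteins of the intestine. Reg3b had 8.03, 6.92 and 7.06 at 10 µM, and 5.55, 5.13 and 5.00 at 5 µM, a rise of 2.11 ± 0.16 (adjusted p = 5.17e-09). Reg3g had 7.68, 7.48 and 8.34 at 10 µM, and 6.22, 5.86 and 5.96 at 5 µM, a rise of 1.82 ± 0.20 (adjusted p = 2.31e-06). Neither overlapped. Hsd11b1, which regenerates active glucocorticoid, rose by 1.96 ± 0.22 (adjusted p = 2.69e-06). Upk1b, a uroplakin counted among the surface epithelium markers, rose by 1.87 ± 0.24 (adjusted p = 1.79e-05), while the other 8 measured markers of that cell type did not pass. Gpnmb, a glycoprotein of lysosome-related organelles, rose by 2.04 ± 0.36 (adjusted p = 0.000831, and 0.103 without the block).

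The largest fall was that of Smoc2, a secreted calcium-binding protein of the matrix. It had 7.72, 8.04 and 7.48 at 10 µM, and 9.59, 10.92 and 9.80 at 5 µM. It fell by 2.36 ± 0.31 (adjusted p = 2.43e-05), so that 5 µM was 5.12-fold above 10 µM, while 2 dimmer probe sets differed by -0.02 and -0.07 and did not pass. Cps1, the first enzyme of the urea cycle, fell by 1.53 ± 0.30 (adjusted p = 0.00241), with -0.07 at a second probe set that did not pass. Lurap1l fell by 1.57 ± 0.21 (adjusted p = 3.14e-05) and Plekhd1 by 1.55 ± 0.25 (adjusted p = 0.000258). Scg2, a secretogranin of secretory granules, fell by 1.69 ± 0.41 (adjusted p = 0.018), and its call was lost without array 1 or 3 of 10 µM, without array 3 of 5 µM and without the block (adjusted p = 0.141). Defb24, a defensin gene, fell by 1.65 ± 0.38 (adjusted p = 0.0126), and its call was lost without array 2 of 10 µM, without array 3 of 5 µM and without the block (adjusted p = 0.358).

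Steroidogenic genes did not move as a group. Of 19 measured members 2 rose and 0 fell, with a median of 0.01. Star, which brings cholesterol into mitochondria, had levels of 12.60, 12.34 and 12 at 10 µM, and 11.42, 11.11 and 10.13 at 5 µM. It rose by 1.43 ± 0.30 (adjusted p = 0.00544), which was lost without array 3 of either dose and without the block (adjusted p = 0.426). Akr1c3, whose older rat symbol is Akr1c18 and whose enzyme inactivates progesterone in the rat ovary, had 9.81, 9.34 and 8.56 at 10 µM, and 7.93, 7.91 and 6.40 at 5 µM. It rose by 1.82 ± 0.25 (adjusted p = 3.98e-05, and 0.527 without the block). For both genes array 3 was the lowest at each dose.

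Cyp19a1, which makes estradiol, had 7.69, 7.60 and 7.51 at 10 µM, and 7.46, 7.86 and 8.10 at 5 µM, and its difference of -0.21 ± 0.91 did not pass (adjusted p = 0.946). The SE rests on the spread shared over all 12 groups. Nr0b1, a repressor of steroidogenic genes, had 7.34, 8.26 and 8.06 at 10 µM, and 9.66, 9.45 and 9.87 at 5 µM, without overlap. Its difference of -1.77 ± 0.60 did not pass with all arrays (adjusted p = 0.127), and it passed at 3.05e-05 when array 2 of 0 µM with cAMP and array 2 of 0 µM with FSH were left out of the fit. Scarb1, the receptor that takes up cholesterol from lipoproteins, likewise differed by 1.24 ± 0.42 (adjusted p = 0.128 with all arrays and 0.0129 without those 2). Cyp11a1, the first enzyme of steroid synthesis, differed by 0.57 ± 0.49 (adjusted p = 0.654) and Hsd17b1, which turns estrone into estradiol, by -1.09 ± 0.54 (adjusted p = 0.37). Nr5a2, a receptor that drives these genes, differed by -0.81 ± 0.23 (adjusted p = 0.0503, and 0.0465 without those 2 arrays).

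Of 20 genes of granulosa differentiation 2 rose and 1 fell (median -0.16). Fzd1, a Wnt receptor, rose by 0.78 ± 0.12 (adjusted p = 0.000196, and 0.487 without the block). Ccnd2, the cyclin through which granulosa cells multiply, had 9.66, 8.47 and 9.38 at 10 µM, and 9.90, 9.67 and 10.71 at 5 µM, a fall by 0.92 ± 0.24 (adjusted p = 0.0318). Its arrays did not overlap, and its call was lost without array 2 or 3 of either dose and without the block (adjusted p = 0.572). The third was Igfbp5 at 0.51, whose call was lost without the same arrays. Inha, the inhibin alpha subunit, differed by -0.17 ± 0.31 (adjusted p = 0.851).

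Of 26 genes of cAMP and protein kinase A signalling 3 rose and 0 fell (median 0.12), and all 3 encode phosphodiesterases, the enzymes that break down cyclic nucleotides. Other phosphodiesterase genes of the list did not pass, with 0.19 for Pde7b (adjusted p = 0.578), 0.07 for Pde8a (0.857) and -0.18 for Pde3b (0.778). Rgs2, which is not a phosphodiesterase gene, differed by 1.18 ± 0.34 and did not pass (adjusted p = 0.0583). It passed at 0.00406 when array 2 of 0 µM with cAMP and array 2 of 0 µM with FSH were left out. Pde4b had levels of 12.21, 12.17 and 12.24 at 10 µM, and 11.37, 10.98 and 10.47 at 5 µM, a rise of 1.27 ± 0.20 (adjusted p = 0.000148) without overlap. A dimmer probe set of Pde4b differed by 0.12 and did not pass. Pde10a rose by 0.83 ± 0.14 (adjusted p = 0.000701, and 0.143 without the block). Pde4d rose by 1.41 ± 0.39 (adjusted p = 0.0443), and its call was lost without any 1 of the 6 arrays. Of 20 estrogen-responsive genes 3 rose and 0 fell (median 0.09). Without the block 1 passed, Areg, and without array 3 of 10 µM a different 1 passed, Ctsd. Ctsd, the cathepsin D gene, rose by 0.93 ± 0.17 (adjusted p = 0.00085, and 0.297 without the block).

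Areg, which encodes the growth factor amphiregulin and is a known target of cAMP in granulosa cells, is shown with its promoter, since a cAMP response element lies in it. The sequence is the 250 bases before the start in RefSeq (GRCr8), at chr14:17265642-17265891 (minus strand), with TGACGTCA in capitals, beginning 91 bases before the start.
Areg: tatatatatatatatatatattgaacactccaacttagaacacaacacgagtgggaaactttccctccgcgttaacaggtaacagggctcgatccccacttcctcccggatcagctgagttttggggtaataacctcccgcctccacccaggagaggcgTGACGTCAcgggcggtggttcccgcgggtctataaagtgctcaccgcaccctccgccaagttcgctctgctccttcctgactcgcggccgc
TGACGTCA, which reads the same on both strands, was present in 1 of 16 promoters of the cAMP list and in 1.59% of all promoters. Areg is a member of the estrogen-responsive list and not of the cAMP list. Areg had 6.89, 6.80 and 7.92 at 10 µM, and 5.49, 5.56 and 5.91 at 5 µM, a rise of 1.55 ± 0.32 (adjusted p = 0.00406) without overlap. Its call was lost without array 3 of 10 µM. The same dose step gave -0.11 with FSH and -0.04 in basal cells, and neither passed. The difference between cAMP and FSH cells, 1.67 ± 0.45, did not pass (adjusted p = 0.346).

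More probe sets passed at the last step of the dose series than at the step before it. From 1 to 5 µM with cAMP 10 probe sets passed (0.0322%), 7 higher (0.0226%) and 3 lower (0.00966%), and 3639 had an unadjusted p under 0.05. For 10 against 5 µM that number was 4285. Both steps use the 5 µM arrays. For 10 against 1 µM 2490 passed (8.02%), 1170 higher (3.77%) and 1320 lower (4.25%). Medians for 5 against 1 µM were 0.16 for the ATF4 list and -0.48 for mitosis, and 0 members of either passed. The test of 1 step against the other called 3 probe sets (0.00966%), all of them with the larger step at 10 µM, and 2 without the block.

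Of those, Akr1c15 differed between the steps by 2.21 ± 0.31 (adjusted p = 0.00211), with 0.38 from 1 to 5 µM. Reg3b differed by 1.99 ± 0.28 (adjusted p = 0.00211), with 0.12 from 1 to 5 µM. Aldh1l2 differed by 1.90 ± 0.31 (adjusted p = 0.0136, and 0.854 without the block), with 0.25 from 1 to 5 µM, and passed in 4 of 9 fits without 1 array. Leaving out array 2 of 5 µM left 0 calls, leaving out array 3 of 5 µM left 1, and leaving out array 2 of 10 µM gave 6. Genes that already rose by 5 µM included Cldn11, by 1.68 (adjusted p = 0.00396), and Nqo1, by 0.96 (adjusted p = 0.0266). For Trib3 the steps were 2.31 and 0.63, and their difference of 1.68 ± 0.58 did not pass (adjusted p = 0.448).

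The same dose step was smaller in number of calls under the other stimuli, and few genes differed between stimuli by test. For 10 against 5 µM, 150 probe sets passed with FSH (0.483%), 101 higher (0.325%) and 49 lower (0.158%), and 148 in basal cells (0.477%), 78 higher (0.251%) and 70 lower (0.226%). The gap was smaller before adjustment, with an unadjusted p under 0.05 for 4285 probe sets with cAMP, 1927 with FSH and 2504 in basal cells. Of the 28 genes named by rank, 25 had a difference of the same sign under all 3 stimuli. These genes were picked by their size with cAMP, and the share over all genes was not computed. The count therefore describes the 28 only. The difference of the step in cAMP cells minus that in FSH cells passed for 22 probe sets (0.0709%), 18 of them above 0 (0.058%) and 4 below (0.0129%). For cAMP minus basal cells it passed for 18 (0.058%), 13 of them above 0 (0.0419%) and 5 below (0.0161%). For these differences between stimuli unadjusted p fell under 0.05 for 1419 and 1426 probe sets. Without the block 3 and 4 passed. Leaving out array 3 of 10 µM with cAMP left 7 against FSH and 7 against basal cells, and leaving out array 3 of 5 µM with cAMP left 14 and 8. Leaving out array 2 of 5 µM with cAMP left 14 against FSH, leaving out array 2 of 10 µM with FSH left 12, and leaving out array 2 of the basal 10 µM group left 10 against basal cells.

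Reg3b was near the bottom of its range in every FSH and basal array, with 5.21, 5.09 and 4.91 at 10 µM with FSH, and 5.34, 5.00 and 5.17 at 5 µM with FSH. In basal cells it had 5.15, 5.13 and 5.16 at 10 µM, and 4.97, 5.06 and 4.89 at 5 µM. The step in cAMP cells exceeded that in FSH cells by 2.21 ± 0.23 (adjusted p = 9.45e-06) and that in basal cells by 1.94 ± 0.23 (adjusted p = 0.000147). Reg3g showed the same order, with steps of -0.17 in FSH cells and 0.04 in basal cells against 1.82 with cAMP. Both genes passed both tests in each of 12 fits without 1 array and without the block.

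Other genes moved in opposite directions. Rnf144b, a ubiquitin ligase gene, had 8.45, 8.92 and 8.47 at 10 µM with cAMP, and 8.85, 9.27 and 8.99 at 5 µM with cAMP, a fall by 0.43 ± 0.11 (adjusted p = 0.0226). It rose by 0.53 (adjusted p = 0.0127) with FSH and by 0.51 (adjusted p = 0.0179) in basal cells. Aldh1a1, which makes retinoic acid, rose by 0.73 ± 0.16 with cAMP (adjusted p = 0.00859) and fell by 0.80 with FSH (adjusted p = 0.014), and in basal cells it differed by -0.64 (adjusted p = 0.0762). The cAMP call of Aldh1a1 was lost without array 3 of 10 µM, without array 2 or 3 of 5 µM and without the block (adjusted p = 0.558). For Rnf144b the adjusted p with cAMP was 0.657 without the block. By contrast, Trib3 rose by 1.68 with FSH and by 1.52 in basal cells and Akr1c15 by 1.29 and 1.35. The step of Akr1c15 in cAMP cells exceeded that in FSH cells by 1.30 ± 0.25 (adjusted p = 0.0295, and 0.148 without the block; 4 of 12 fits without 1 array passed), and the difference from basal cells, 1.24 ± 0.25, did not pass (adjusted p = 0.0502).

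**Figure D4:**
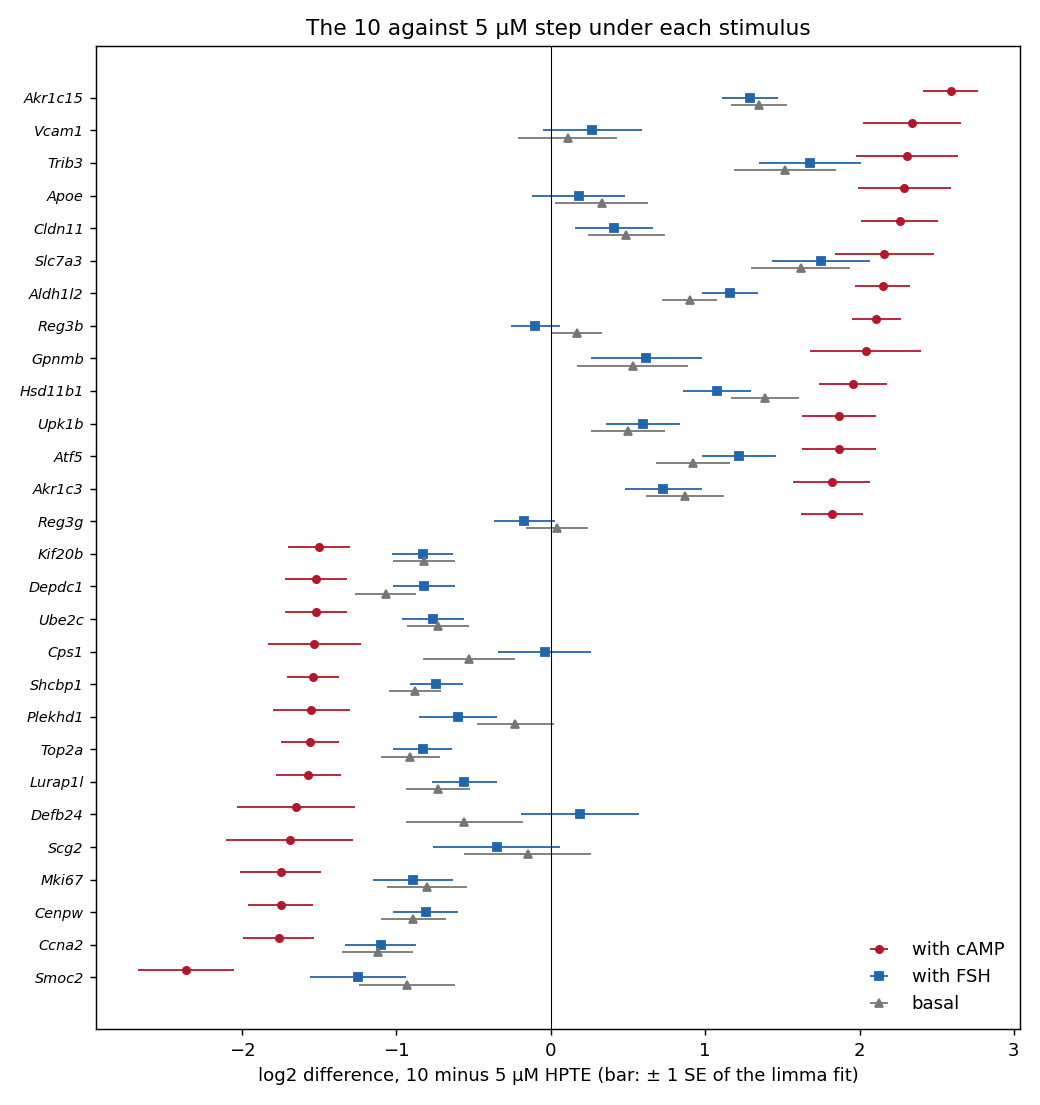
Difference between 10 and 5 µM HPTE (log2, horizontal) with cAMP, with FSH and in basal cells for the 28 genes named by rank (down the page), with bars of 1 SE from limma and n = 3 arrays against 3. Reg3b lies at 2.11 with cAMP, at -0.10 with FSH and at 0.17 in basal cells.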

How the data were processed

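Per the labels' protocols, 40 ng of RNA from each sample was amplified with NuGEN Ovation and put on Affymetrix Rat Genome 230 2.0 arrays. The deposited values are linear intensity values per probe set; the submitters' processing notes name RMA, the design text names ArrayAssist, and the sources used here give no versions. The log2 of each intensity was taken here. Controls (57 probe sets) were set aside and 31042 tested without a filter. Of these 20826 carried exactly 1 gene symbol. A gene with several probe sets was read from the one brightest on average (14217 genes in all), and 581 of 643 distinct list genes were measured.

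limma 3.58.1 in R 4.3.3 (lmFit, contrasts.fit and eBayes) fitted 12 group means with the title number as a block, because the arrays were matched by that number, on all 36 arrays (22 residual degrees of freedom). P-values of the 4 comparisons were adjusted separately by Benjamini-Hochberg. Deviations of arrays with the same number correlated at 0.263, 0.176 and 0.8 between the doses, over probe sets. Numbers 1 and 2 correlated at 0.483 and 0.492 when crossed. The labels do not say what a number stands for.

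Named genes were the 14 largest rises and 14 largest falls among called genes whose arrays did not overlap between the doses. The 5 largest each way in each test of a difference and list members were also named. The members and lists were chosen with earlier results of these data known. The design text gives androstenedione as 0.1 µM, while the sample descriptions give it in M. Arrays give no read depth, and their number limits the precision. Alternatives were no block, other arrays, scalings, filters and variance priors.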

Additional observations from a re-analysis of the deposited data

Results flagged for a closer look

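The step from 5 to 10 µM HPTE differed between stimuli by test (limma, adjusted over all probe sets) for the named and list genes given here, as a difference of log2 differences with n = 3 arrays in each group. Against basal cells, the step with cAMP was larger by 1.94 for Reg3b (adjusted p = 0.000147), 1.78 for Reg3g (0.00588), 1.77 for Cldn11 (0.0465), 1.36 for Aldh1a1 (0.00775) and 1.35 for Apoc3 (0.00675). It differed by -0.74 for Resf1 (0.0394), -0.94 for Rnf144b (0.00596), -1.24 for Lrrc4c (0.031) and -1.28 for Adam22 (0.0138). Of 12 fits that each left out 1 array, 2 kept the call of Resf1, 2 that of Lrrc4c, 2 that of Cldn11, 8 that of Adam22 and 10 that of Aldh1a1 (lost without array 3 of 10 or 5 µM with cAMP), while Reg3b, Reg3g, Apoc3 and Rnf144b passed in all 12. Adam22 lost it without array 3 of 10 or 5 µM with cAMP and without array 2 of either basal dose. Resf1 and Lrrc4c also lost it under quantile scaling and centring, and Cldn11 under centring. With the mean of all probe sets of a gene, Adam22, Resf1 and Cldn11 lost it. For 10 against 5 µM with cAMP, dimmer probe sets differed by -0.42 and 0.22 for Adam22 and by -0.39 for Resf1, and none of these passed. Without the block the adjusted p was 0.28 for Adam22, 0.79 for Lrrc4c and 1.0 for Resf1, Cldn11, Aldh1a1, Apoc3 and Rnf144b.

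Against FSH cells, the step with cAMP was larger by 2.21 for Reg3b (adjusted p = 9.45e-06), 2.11 for Apoe (0.0445), 1.99 for Reg3g (0.000856), 1.85 for Cldn11 (0.0263), 1.77 for Pde4b (0.00292), 1.52 for Aldh1a1 (0.0019), 1.31 for Fabp5 (0.0123) and 1.3 for Akr1c15 (0.0295). It differed by -0.96 for Rnf144b (0.00292), -1.17 for Adam22 (0.0327) and -1.32 for Alpk3 (0.0445). Alpk3 rose by 0.92 with FSH, and its difference of -0.40 with cAMP did not pass. Against FSH, 12 fits that each left out 1 array kept the call in 0 for Adam22, 2 for Alpk3, 3 for Apoe, 4 for Cldn11, 4 for Akr1c15 and 9 for Fabp5 (lost without array 3 of 10 µM or array 2 of 5 µM with cAMP, or array 1 of 10 µM with FSH). Apoe, Alpk3 and Akr1c15 also lost it under centring, and Apoe under the trended robust variance prior. Adam22 and Apoe lost it with the mean of all probe sets of a gene. In each of the 12, Reg3b, Reg3g, Pde4b, Aldh1a1 and Rnf144b passed. Without the block the adjusted p was 0.469 for Adam22, 0.893 for Alpk3, 0.482 for Apoe, 0.148 for Akr1c15, 0.262 for Pde4b and 1.0 for Cldn11, Aldh1a1, Fabp5 and Rnf144b. Of all genes given here, only Reg3b and Reg3g kept their calls without the block.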

How the results depend on the processing

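The count of 863 probe sets became 218 with no replicate block (title number), 405 with only the groups compared in the fit, and 104 with arrays numbered 1 and 2 only. Without array 2 of 0 µM with FSH and with cAMP the count was 1224. It ran between 336 and 688 when 1 array was left out. The 18 probe sets for cAMP minus basal became 4 with no replicate block, 54 with only the groups compared, 57 without array 2 of 0 µM with FSH and with cAMP, 0 with numbers 1 and 2 only and 11 with number 3 against 1 and 2 as the block (chosen after seeing the data). Leaving out 1 array gave 7 to 17. The 22 for cAMP minus FSH became 3, 38, 58, 0 and 13 under the same settings in the same order, and 7 to 20 when 1 array was left out. The 3 for 1 step against the other became 1 with only the groups compared, 0 with numbers 1 and 2 only, and 0 to 6 when 1 array was left out. These counts stayed within 1.5 times under quantile scaling, centring, a filter at the median level and a trended robust variance prior. Numbers 1 and 2 leave 2 arrays a group, and the cause of the other shifts was not tested. Cyp19a1, which did not pass, turned to 0.01 without array 2 of 5 µM and ran between -0.6 and 0.01 when 1 array was left out. Among called list members and genes named by rank, calls were lost most often without the block or with numbers 1 and 2 only, and no called gene changed direction. Quantile scaling and centring moved the median of all probe sets to 0.011 and -0.009. Dim probe sets limit the fold of Reg3b, Reg3g, Upk1b, Areg and Scg2, whose lower levels lie near the bottom of the intensity range, and the filter at the median level removed these genes from the test.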

Other observations

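Lipid genes moved both ways. Of 29 measured genes of lipid uptake and storage 4 rose and 2 fell (median 0.27). Angptl4, an inhibitor of lipoprotein lipase, had levels of 10.98, 10.27 and 9.80 at 10 µM with cAMP, and 9.09, 9.59 and 8.65 at 5 µM with cAMP. It rose by 1.24 ± 0.21 (adjusted p = 0.000512, and 0.463 without the block), and by 1.12 with FSH and 1.06 in basal cells. Fabp5, a fatty acid binding protein, rose by 0.89 ± 0.16 (adjusted p = 0.00145, and 0.141 without the block), with -0.42 for FSH, which did not pass. Pparg, the regulator of fat storage, had 7.64, 6.43 and 7.15 at 10 µM, and 7.73, 8.20 and 8.48 at 5 µM, a fall by 1.07 ± 0.26 (adjusted p = 0.0188). Lpl, lipoprotein lipase itself, fell by 0.79 ± 0.21 (adjusted p = 0.0333). The calls of Pparg and Lpl were lost without the block and without array 3 of 10 µM or array 2 or 3 of 5 µM, that of Pparg also without array 2 of 10 µM and that of Lpl without array 1 of 10 µM. Plin2 and Abca1 rose by 0.49 and 0.53, and both lost the call without array 2 or 3 of either dose, and Abca1 also without array 1 of 10 µM.

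Of 34 extracellular matrix genes 4 rose and 1 fell (median 0.16), and 0 passed without the block. Spp1, the osteopontin gene, rose by 1.15 ± 0.22 (adjusted p = 0.00211) and Bgn, the biglycan gene, by 0.94 ± 0.19 (adjusted p = 0.00399). Lum, the lumican gene and also 1 of the theca and stroma markers, fell by 1.24 ± 0.33 (adjusted p = 0.0366), and its call was lost without any 1 of the 6 arrays but array 3 of 10 µM. Of 19 genes of p53, arrest and apoptosis 2 rose and 0 fell (median 0.19). Casp4, an inflammatory caspase, had 8.81, 9.05 and 9.03 at 10 µM, and 7.36, 7.41 and 7.10 at 5 µM, a rise of 1.67 ± 0.23 (adjusted p = 3.46e-05). It also rose by 1.41 with FSH and by 1.27 in basal cells. Cdkn1a, the p21 inhibitor of cyclin-dependent kinases, rose by 0.76 ± 0.16 (adjusted p = 0.00579), and its call was lost without array 3 of 10 µM and without the block (adjusted p = 0.936).

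No member passed among 30 genes of the mitochondrial respiratory chain (median 0), 27 proteasome subunits (median 0.02), 20 genes of cholesterol biosynthesis (median 0.10) and 24 genes of the actin cytoskeleton and smooth muscle (median 0.08). In the other lists, 2 of 23 interferon and immunoproteasome genes rose (median 0.23), as did 2 of 26 aldo-keto reductases and glutathione transferases (median 0.23), 2 of 25 inflammatory and adhesion genes (median 0.10), 2 of 15 genes of the aryl hydrocarbon receptor response (median 0.03), 1 of 17 retinoid genes (median 0.14) and 1 of 26 hypoxia and glycolysis genes (median 0.08), and 0 of these fell. The aldo-keto list did not hold Akr1c15, and its 2 members that rose were Akr1c3 and Gstp1. Some genes that rose here are also in lists given above: Akr1c3 (steroidogenic), Gstp1 and Nqo1 (Nrf2) and Vegfa (ATF4). Without the block the counts were 0 for the interferon, aldo-keto, aryl hydrocarbon and retinoid lists, and 1 each for the inflammatory and hypoxia lists. The interferon count was 1 without array 1 of 10 µM and 0 without any other 1 of the 6 arrays. The aryl hydrocarbon count was 1 without array 2 or 3 of either dose and 3 without array 1 of 5 µM. The inflammatory count was 1 without array 3 of either dose, and the retinoid count was 0 without array 3 of either dose or array 2 of 5 µM.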
